A study of Caenorhabditis elegans with 32 samples.

Results

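Polysome-bound mRNA was compared with the total mRNA of the same lysates in adult Caenorhabditis elegans whose lotr-1 gene carried a tag but was otherwise intact. The comparison used 8 of the 32 libraries of the study, chosen by their labels: 4 polysome libraries and 4 lysate libraries of strain DUP167, which carries the allele lotr-1(sam85[3xFLAG::gfp::lotr-1]) and is called the wild type here. The animals were unfractionated whole hermaphrodites on day 1 of adulthood, grown at 20 °C on bacteria, with no treatment. After lysis, a part of each lysate was kept for total mRNA and the remainder was run through a sucrose gradient from which the polysomes were collected, so the polysome library and the lysate library with 1 replicate number came from 1 lysate. The other 24 libraries, used only for the last comparison, came from 3 strains with 4 polysome and 4 lysate libraries each: DUP207, an in-frame deletion of the whole tagged gene (sam117), DUP217, a deletion of the LOTUS domain (sam113), and DUP185, a deletion of the Tudor domain (sam102). All 4 strains carry the same tag at the lotr-1 locus, and no untagged animals were compared. Each genotype is represented by 1 strain and 1 allele. The study was built to compare the lotr-1 alleles; within the wild type, the fractions show which mRNAs are over- or under-represented in polysomes.

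A polysome is an mRNA carrying several ribosomes at once, and it sediments faster in sucrose than free mRNA, ribosomal subunits or single ribosomes. The share of an mRNA found in polysomes is widely read as a measure of its translation, although a short reading frame holds few ribosomes even when it is translated well, and other heavy particles can sediment with polysomes. In the adult hermaphrodite gonad many mRNAs are made in advance and kept silent by RNA-binding proteins bound to their untranslated regions, until the oocyte matures or the embryo begins to divide. LOTR-1 is a germ granule protein with a LOTUS and a Tudor domain.

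Polysome libraries held 31.1 to 36.2 M counts and lysate libraries 34 to 37.3 M. No external standard was added per the labels, so every ratio is relative: it says whether an mRNA took a larger or smaller part of the polysome library than of the lysate library, after scaling by the trimmed mean of M-values (TMM). Levels are CPM, counts scaled to a common library size on that scale, always given for replicates 1, 2, 3 and 4 in that order. The log2 ratio is polysome over lysate from the paired fit over the 4 lysates, followed by its standard error after ±. A gene was called when edgeR's quasi-likelihood test gave a Benjamini-Hochberg adjusted p under 0.05 over all genes tested. Polysome-rich and polysome-poor mean called and at least 2-fold higher or at least 2-fold lower. Where the highest or lowest member of a list is named, it was taken among called members with a mean of at least 10 CPM over the 8 libraries.

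Replicates 3 and 4 stood apart from replicates 1 and 2 in both fractions. The oocyte gene oma-1 had 119.9, 105, 31.3 and 14.3 CPM in polysomes, against 261, 269, 120.2 and 60.7 CPM in lysates, while the sperm gene msp-31 had 81, 98.2, 417 and 509 CPM in polysomes, against 28.5, 28.2, 157 and 188 CPM in lysates. Both fractions showed the difference, and in whole animals fewer cells of a type and less RNA per cell cannot be told apart. Reads of all markers of the germ line, oocytes, sperm, intestine, muscle, neurons and hypodermis were present in all 8 libraries, with spe-9 of sperm and bli-1 of the hypodermis as low as 0.223 and 0.319 CPM. The embryonic markers end-3 and tbx-37 did not exceed 1.86 CPM, and hlh-1 lay between 1.94 and 4.2 CPM. The ratios of the pairs correlated across 14895 genes with Pearson's r of 0.765 to 0.903, highest between pairs 1 and 2 (0.903) and between pairs 3 and 4 (0.894), as a description over genes that share libraries and depth. 

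The lotr-1 mRNA, here coding for the tagged protein, was itself polysome-poor. It had 106, 98.4, 53.3 and 38.9 CPM in polysomes, against 287, 312, 194 and 103 CPM in lysates. Each lysate library exceeded its own polysome library, although the lysate of replicate 4 reached only the level of the polysome libraries of replicates 1 and 2. The log2 ratio was -1.59 ± 0.11 (adjusted p = 1.56e-06), and without the replicate block the adjusted p was 0.0586.

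Most mRNAs of the adult animal were unevenly divided between polysomes and lysate. Of 14895 genes tested, 4706 (31.6%) were called higher in polysomes and 4262 (28.6%) lower, so that 60.2% were called in either direction. Scaled by library totals alone, without TMM, the counts became 2325 higher and 6079 lower, because the median log2 ratio of all genes moved by -0.35, to -0.25 from 0.10. Directions given below are on the TMM scale, and a list is to be read against that median of 0.10. Without the replicate block the counts were 881 higher and 841 lower, since the gap between the replicates then counted as error. Pairs 1 and 2 alone gave 4544 higher and 4516 lower, and pairs 3 and 4 alone gave 4232 higher and 4429 lower. The polysome-rich group held 1261 genes (8.47%) and the polysome-poor group 1955 (13.1%), and the polysome and lysate libraries did not overlap at all for 3141 genes (21.1%). Leaving out replicate 4 gave 1960 polysome-rich genes, and leaving out each of the others gave 1107 to 1352.

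The low side of the distribution was the longer one. Its 5th percentile lay at a log2 ratio of -1.62 and its 95th percentile at 1.15, with quartiles at -0.52 and 0.56. Among the protein-coding genes named by rank below, the highest reached 2.15 and the lowest -4.24. The plot of ratio against lysate level shows that abundant mRNAs of the ribosome lay near the upper edge and that regulated germline mRNAs reached far below 0.

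**Figure D1:**
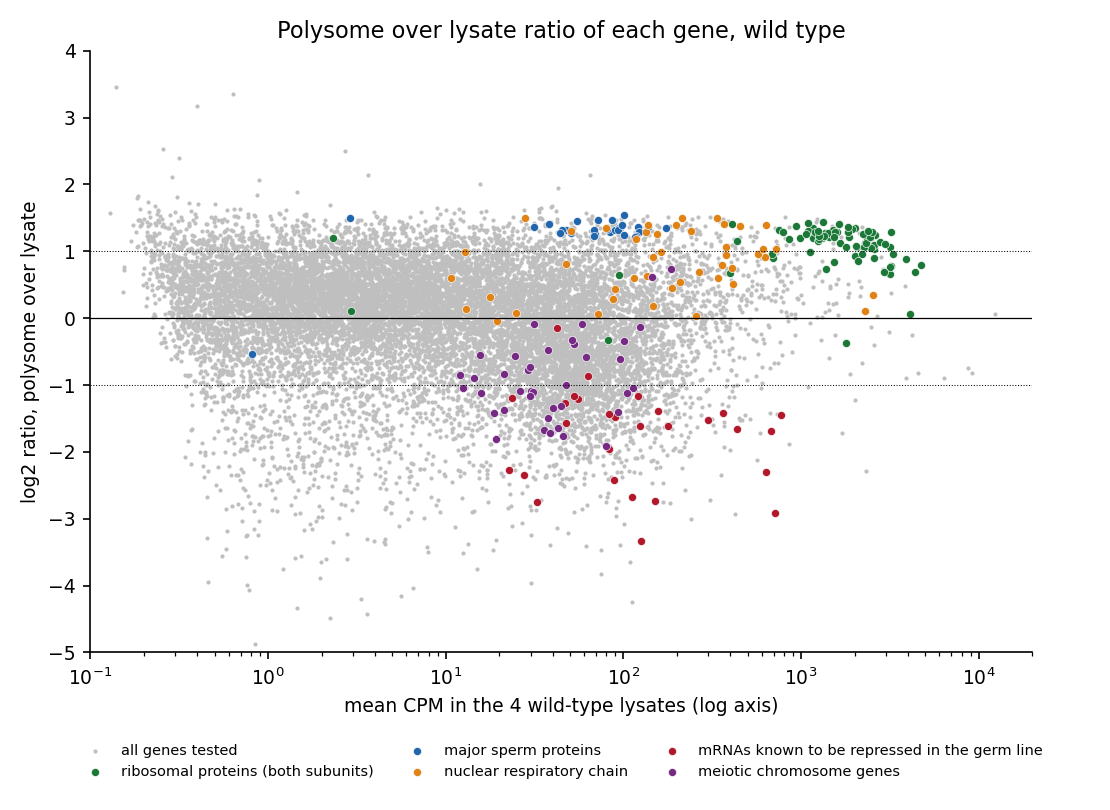
Each point is a gene in the wild type, placed by its mean CPM in the 4 lysate libraries (log axis) and by its log2 ratio of polysome over lysate; colours mark members of 6 gene lists, with both ribosomal protein lists in green, and dotted lines mark 2-fold. Most ribosomal protein genes, most major sperm protein genes and many respiratory chain mRNAs lie above the upper dotted line, mRNAs known to be repressed in the germ line lie mostly below the lower one, and 5 genes fall outside the axes.

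Messenger RNAs for cytoplasmic ribosomal proteins were high in polysomes. Of 82 tested, 78 were called higher, 2 lower, and 59 were polysome-rich. The 32 proteins of the small subunit were all called higher, with a median of 1.25, and 46 of the 50 of the large subunit were, with a median of 1.13. Together they took 26.6, 27.4, 27.2 and 30.4% of all counts in polysomes, against 14.97, 14.5, 17.1 and 21.4% in lysates. That share was higher in polysomes than in every lysate library.

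The small-subunit gene rps-8, 1 of the 5 polysome-rich genes with the largest share of lysate counts, had 7056, 7665, 7769 and 8565 CPM in polysomes, against 2769, 2817, 3153 and 4062 CPM in lysates. Its log2 ratio was 1.29 ± 0.10 (adjusted p = 2.5e-06). The other 4 of those genes were rps-7, rpl-7, rpl-13 and rpl-17, with log2 ratios of 1.11, 1.07, 1.14 and 1.25. The highest ribosomal protein gene by the naming rule was rpl-14, with 3482, 3427, 3470.2 and 3944 CPM in polysomes, against 1289, 1198, 1213 and 1636 CPM in lysates and a log2 ratio of 1.43 ± 0.09. The groups did not overlap for these genes, and the lysate of replicate 4 was the highest of the 4 lysates for each of them. The exceptions were the 2 copies of rpl-41, which codes for the shortest ribosomal protein known in eukaryotes. For rpl-41.2 the values were 1468, 1406, 1283 and 1305 CPM in polysomes, against 1777, 1602, 1561 and 2222 CPM in lysates, a log2 ratio of -0.38 ± 0.11, and for rpl-41.1 the log2 ratio was -0.33 ± 0.09. Both calls were lost without replicate 4, with adjusted p = 0.44 for rpl-41.2 and 0.22 for rpl-41.1, that of rpl-41.2 also without replicate 3 (0.056), and reads may be split between the copies.

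Ribosomal proteins of mitochondria, made in the cytoplasm from nuclear genes, leaned the same way by less. Of 71 tested, 47 were called higher and 2 lower, with a median of 0.44. The highest was mrps-16, at 111, 119, 102 and 105 CPM in polysomes, against 55.6, 59.1, 44.3 and 51.6 CPM in lysates, and the lowest was mrps-31, with a log2 ratio of -0.58 ± 0.11.

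Factors that drive translation did not share 1 direction. Of 42 initiation and elongation factors, 21 (50%) were called higher and 9 (21.4%) lower, against 31.6% and 28.6% over all genes. Their median was 0.23, and -0.12 under library totals. The highest were the eIF5A gene iff-1, with 2477, 2689, 1893 and 1810.2 CPM in polysomes, against 1023, 885, 732 and 790.4 CPM in lysates, and the eIF1 gene eif-1, with log2 ratios of 1.36 ± 0.10 and 1.15 ± 0.10. Among the 5 eIF4E isoforms, which bind the cap, 4 were called higher, ife-1 with a log2 ratio of 0.95 ± 0.10. The lowest were 2 subunits of eIF2B, the exchange factor of eIF2: eif-2Bdelta at -1.03 ± 0.14 and eif-2Bepsilon at -0.88 ± 0.10. The elongation factor gene eef-1A.1 had 14133, 12111, 13120.4 and 12021 CPM in polysomes, against 11334, 12515, 12742 and 12516 CPM in lysates, with no call (log2 ratio 0.06, adjusted p = 0.609). The poly(A)-binding protein gene pab-1 was lower in polysomes in all 4 pairs, with 1181, 957, 1162 and 923 CPM in polysomes, against 1687, 1927, 2101 and 1803 CPM in lysates and a log2 ratio of -0.84 ± 0.10.

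Of 32 aminoacyl-tRNA synthetases, the enzymes that charge tRNAs, 12 (37.5%) were called lower and 4 (12.5%) higher. Over all genes tested the shares were 28.6% and 31.6%. The other 16 were not called, and the median was -0.17. The mitochondrial arginyl enzyme gene rars-2 was the lowest, at 17.4, 17.4, 13.1 and 10.9 CPM in polysomes, against 51.5, 49.2, 27.8 and 20 CPM in lysates. It was the sole polysome-poor member, at -1.26 ± 0.14.

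Nuclear genes for the respiratory chain and ATP synthase were high in polysomes as a group. Of 45 tested, 37 were called higher, none lower, and 17 were polysome-rich, with a median of 0.91. The cytochrome c oxidase subunit gene cox-5B had 890.4, 932, 926 and 1044 CPM in polysomes, against 329, 309, 310.1 and 398 CPM in lysates, and a log2 ratio of 1.5 ± 0.09 (adjusted p = 1.29e-06). Its 4 polysome libraries lay above all 4 lysates and varied little between the replicates. The ATP synthase beta subunit gene atp-2, with 3363, 2997, 3395 and 3119.9 CPM in polysomes, against 2318, 2349, 2839 and 2601 CPM in lysates, reached only 0.35 ± 0.09 and lost its call under library totals (adjusted p = 0.98).

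The 10 mRNAs of the mitochondrial genome tested are translated inside mitochondria by other ribosomes, so cytoplasmic polysomes do not translate them. Their median was 0.04, and -0.30 under library totals. Of the 10, 3 (30%) were called higher and 2 (20%) lower, against 31.6% and 28.6% over all genes. The NADH dehydrogenase gene nduo-6 was polysome-poor, at 18, 20.5, 10.1 and 16.5 CPM in polysomes, against 59.9, 63, 95.2 and 125 CPM in lysates, and nduo-3 had a log2 ratio of -1.80 ± 0.16. The cytochrome oxidase gene ctc-1 was higher in polysomes, with 1274, 1693, 1725 and 1389 CPM in polysomes, against 688, 821, 1013 and 1126 CPM in lysates and a log2 ratio of 0.75 ± 0.12. A ratio of this size was thus also measured for an mRNA with no known part in cytoplasmic polysomes, and its source in the gradient was not tested.

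Genes of core metabolism stayed within 2-fold, and more were called higher than lower. Of 31 glycolytic and citric acid cycle genes, 15 (48.4%) were called higher and 2 (6.45%) lower, against 31.6% and 28.6% over all genes. Their median of 0.25 became -0.10 under library totals. Triosephosphate isomerase, tpi-1, was the highest at 0.90 ± 0.12 and the ketoglutarate dehydrogenase gene ogdh-1 was among the lowest at -0.34 ± 0.09, a call lost without replicate 4 (adjusted p = 0.20) or 3 (0.063). Of 18 fatty acid synthesis and desaturation genes, 8 (44.4%) were called higher and 1 (5.56%) lower, with a median of 0.21, and -0.13 under library totals.

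The proteasome, the main protease complex of the cytoplasm, split between its parts. Of 33 subunits, 17 were called higher and 5 lower. The 14 subunits of the 20S core, the proteolytic barrel, were all called higher, between 0.57 and 0.91. Of the 19 subunits of the 19S cap, which binds and unfolds substrates, 3 were called higher and 5 lower, with a median of -0.06. This division was made after the values were seen. The core gene pas-2 had 529, 583, 314 and 344 CPM in polysomes, against 273, 246, 192 and 209 CPM in lysates, a log2 ratio of 0.91 ± 0.11. The cap gene rpn-2 had 313, 227, 171 and 134 CPM in polysomes, against 391, 408, 324 and 246 CPM in lysates, a log2 ratio of -0.74 ± 0.11.

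Of 58 chaperone and heat shock genes, 15 (25.9%) were called higher and 21 (36.2%) lower, near the 31.6% and 28.6% over all genes tested, with a median of -0.16. Among 9 small heat shock proteins, which hold unfolded proteins without ATP, 8 were called higher and 5 of those were polysome-rich, and among 10 chaperones of the HSP60, HSP70, HSP90 and HSP110 classes 6 were called lower and none higher, a division also made after the values were seen. The small heat shock gene hsp-12.2 was higher in polysomes, at 116, 111, 161 and 142 CPM, against 45.4, 47.3, 70.1 and 65.3 CPM in lysates. The J-domain gene dnj-8, whose family stimulates HSP70, was polysome-poor, at 18.5, 15.9, 10.5 and 10.1 CPM in polysomes, against 65.3, 62, 37.5 and 23.8 CPM in lysates.

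Spliceosomal Sm and Lsm proteins, small subunits that ring the RNA of snRNPs, were high: 13 of 14 were called higher, none lower, and 9 were polysome-rich, with a median of 1.14. The SmG gene snr-7 had the highest log2 ratio of all protein-coding genes that met the naming rule, with 337, 307, 233 and 246 CPM in polysomes, against 89.7, 68.5, 46 and 54.6 CPM in lysates, a log2 ratio of 2.15 ± 0.10 (adjusted p = 4.62e-07). Every polysome library of snr-7 was above every lysate. The other splicing family, the SR proteins, had 1 of 8 (12.5%) called higher and 2 (25%) lower, with a median of 0.04 (-0.31 under library totals). Replication-dependent histone mRNAs lack a poly(A) tail and so are captured poorly by poly(A) selection. Of 47 histone genes, 16 (34%) were called higher and 9 (19.1%) lower, against 31.6% and 28.6% over all genes. Their median per pair was -0.29, -0.23, 0.39 and 0.41 for pairs 1 to 4. The linker histone gene hil-5 had a log2 ratio of -0.93 ± 0.15 and the H3.3 gene his-71 one of 1.46 ± 0.10.

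Sperm mRNAs were high in polysomes, above all those of the major sperm proteins (MSPs), which move the crawling sperm cell and signal to oocytes. Of 29 MSP genes tested of 31 in the table, 28 were called higher and all 28 were polysome-rich, with a median of 1.33. For msp-31 (values above) the polysome library exceeded its own lysate in each pair, although both fractions were several times higher in replicates 3 and 4, and the log2 ratio was 1.54 ± 0.10 (adjusted p = 1.5e-06). The groups therefore overlap across replicates while the 4 pairs give nearly the same ratio. Reads of MSP genes may be shared between near-identical copies. Among the MSP-domain genes found by rank, msd-4 had 33.4, 36.1, 222 and 235 CPM in polysomes, against 12.2, 10.6, 60.4 and 76.2 CPM in lysates and a log2 ratio of 1.68 ± 0.11. The call of msd-3 (log2 ratio 2.01 ± 0.69, adjusted p = 0.0273) was lost under DESeq2 (adjusted p = 0.26) and under library totals (0.056). It was also lost with all 32 libraries in the fit (0.072) and with limma on the replicate-adjusted values (0.056). Its pairs ranged from 0.70 to 5.65, and 1 of its lysate libraries was listed at 0.

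Other sperm genes split. Of 58 tested of 60 in the table, 32 were called higher, 20 of these polysome-rich, and 7 were called lower, 5 of these polysome-poor, with a median of 0.54. Sperm-specific family members ssp-35 and nspd-2 were among the 10 highest protein-coding genes, with log2 ratios of 1.63 ± 0.12 and 1.62 ± 0.10. The lowest were genes of CPEB family RNA-binding proteins. Of these, cpb-1, needed for spermatogenesis, had 9.64, 7.29, 7.82 and 5.51 CPM in polysomes, against 55, 61.2, 39 and 21.2 CPM in lysates, a log2 ratio of -2.46 ± 0.17. The gene of FOG-1, the CPEB protein that specifies sperm, fog-1, had 4.68, 4.76, 4.7 and 2.7 CPM in polysomes, against 34.5, 32.2, 14.4 and 9.08 CPM in lysates, a log2 ratio of -2.27 ± 0.22. Both were low in polysomes in every pair.

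The mRNAs of RNA-binding proteins that oocytes store for the embryo were low in polysomes almost without exception. Of 24 tested, 23 were called lower, 21 were polysome-poor and none was called higher, with a median of -1.51, against 0.10 over all genes; the 1 that did not pass was puf-12. The same holds for 33 mRNAs chosen because they are known from single-gene studies to be repressed in the germ line, a list that overlaps the first: 31 were called lower, 26 were polysome-poor and none was called higher, with a median of -1.48. Here syp-2 and fbf-2 did not pass. These lists were drawn up with results of these data known, so their direction adds no independent evidence.

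The Nanos gene nos-2, needed in primordial germ cells of the embryo and silent in oocytes, had 19.8, 20.9, 4.91 and 2.64 CPM in polysomes, against 217, 209, 55.3 and 21.1 CPM in lysates. Even the highest polysome library was at or below the lowest lysate, and the log2 ratio was -3.33 ± 0.12 (adjusted p = 1.16e-07). The maternal RNA-binding protein gene spn-4 had 226, 187, 35.9 and 17.8 CPM in polysomes, against 1115, 1150.3, 398 and 176 CPM in lysates, a log2 ratio of -2.92 ± 0.19. Another Nanos gene, nos-1, which is on neither of these lists, had 11.2, 14.9, 5.54 and 3.3 CPM in polysomes, against 95.3, 94.6, 37.4 and 20.8 CPM in lysates and a log2 ratio of -2.79 ± 0.12.

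The 7 CCCH zinc-finger genes oma-1, oma-2, pos-1, mex-1, mex-5, mex-6 and pie-1, which control oocyte maturation and early cell fate, were all polysome-poor, between -2.12 and -1.11. At the low end, pos-1 had 295, 276, 49.4 and 21.3 CPM in polysomes, against 939, 916, 288 and 125.9 CPM in lysates. The PUF proteins, which bind 3' untranslated regions and repress their targets, had 8 of 10 called lower and 7 polysome-poor. The PUF gene puf-5, active in oocytes, had 414, 395, 115 and 44 CPM in polysomes, against 1028, 1089, 407 and 196 CPM in lysates, a log2 ratio of -1.69 ± 0.14.

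Among the 33 mRNAs known to be repressed are several that code for no RNA-binding protein. The Notch receptor gene glp-1, the signal receptor that keeps germline stem cells dividing, had 60.6, 43.3, 26.9 and 19.9 CPM in polysomes, against 206, 165, 82.9 and 43.9 CPM in lysates, a log2 ratio of -1.62 ± 0.13. The Wnt ligand gene mom-2, which orients divisions of the early embryo, had 37.9, 35.6, 11.1 and 5.3 CPM in polysomes, against 243, 250.3, 74.5 and 34.1 CPM in lysates, a log2 ratio of -2.73 ± 0.10. The homeobox gene pal-1, which patterns the posterior embryo, had 25, 24.9, 10.5 and 4.6 CPM in polysomes, against 142, 136, 52.8 and 24.2 CPM in lysates, a log2 ratio of -2.42 ± 0.10. The lysate exceeded the polysome library in each of the 4 pairs for all of them. For zif-1, which marks germ plasm proteins for degradation in somatic cells of the embryo, the ratio was -2.68 ± 0.13. For the yolk receptor gene rme-2, made in growing oocytes, it was -1.45 ± 0.18, and for the sex-determining gene tra-2 it was -1.17 ± 0.16. These genes were picked for their known roles after the values were seen.

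Regulators that act earlier in the germ line, of the GLD, FBF and DAZ families and their partners, were also low: 20 of 25 were called lower, 14 polysome-poor, and 1 higher, with a median of -1.14. The gene of GLD-1, the KH-domain repressor of the meiotic region, had 195, 182, 98.1 and 42.3 CPM in polysomes, against 872, 1009, 448 and 219 CPM in lysates, a log2 ratio of -2.30 ± 0.10 (adjusted p = 2.28e-07). Replicates 3 and 4 were lower than 1 and 2 in both fractions of gld-1, and the lysate was the higher fraction in each pair. The DAZ homologue daz-1, needed for oogenesis, had 49.4, 31, 31 and 22.6 CPM in polysomes, against 316, 335, 165 and 74.8 CPM in lysates and a log2 ratio of -2.57 ± 0.22. The exception was mog-2, a spliceosome component, at 0.52 ± 0.10, a call lost under library totals (adjusted p = 0.16).

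**Figure D2:**
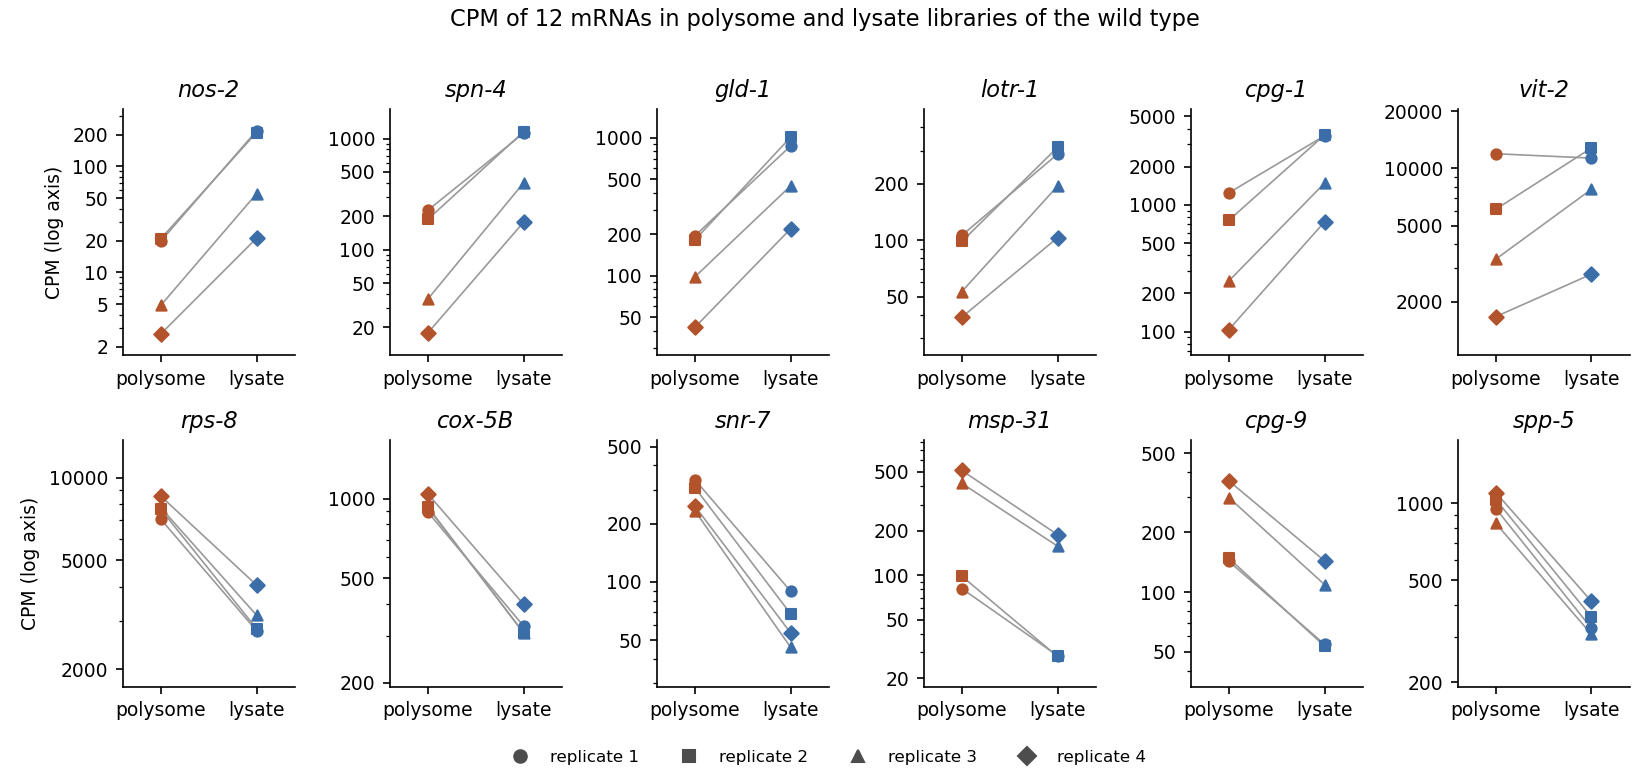
CPM (log axes, set separately for each gene) of 12 mRNAs in the polysome and lysate libraries of the wild type, with a line joining the fractions of each lysate and a symbol for each replicate. The germline mRNAs nos-2, spn-4, gld-1, lotr-1 and cpg-1 are lower in polysomes in all 4 lysates, vit-2 in all but replicate 1, and rps-8, cox-5B, snr-7, msp-31, cpg-9 and spp-5 are higher in all 4.

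Genes of the eggshell and vitelline layer list were mostly polysome-poor. Of 21 tested, 16 were called lower, 12 of them polysome-poor, and 5 higher, with a median of -1.23. The median per pair was -0.87 and -0.80 in pairs 1 and 2 and -1.56 and -1.82 in pairs 3 and 4, so the size differed between the replicates while the sign did not. The chondroitin proteoglycan gene cpg-1 was the polysome-poor gene with the largest share of lysate counts, with 1244, 755, 251 and 103.8 CPM in polysomes, against 3503, 3557, 1482 and 734 CPM in lysates. Its log2 ratio was -2.28 ± 0.19 (adjusted p = 3.57e-06). The related cpg-2 and the vitelline layer gene cbd-1 followed it among the 5 polysome-poor genes with the largest shares, at -1.23 ± 0.16 and -1.72 ± 0.18, together with the C-type lectin gene clec-87 at -1.87 ± 0.21 and the polyubiquitin gene ubq-1 at -1.03 ± 0.11.

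The pseudophosphatase gene egg-4, which acts at the oocyte-to-embryo transition, had 94.1, 90.9, 29.1 and 16.6 CPM in polysomes, against 279, 283, 137 and 85.6 CPM in lysates, and the chitin synthase gene chs-1 had a log2 ratio of -1.78 ± 0.17. The 5 members called higher were cpg-3, cpg-7, cpg-9, perm-2 and perm-4. Of these, cpg-7 and cpg-9 were polysome-rich. The values of cpg-9, a chondroitin proteoglycan gene like cpg-1, were 143, 148, 299 and 362 CPM in polysomes, against 54.6, 53.5, 109 and 144 CPM in lysates, with a log2 ratio of 1.41 ± 0.09. Its levels were higher in replicates 3 and 4, unlike those of cpg-1.

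Vitellogenins, the yolk proteins that the intestine secretes for oocytes, were called lower in 6 of 6 cases, with a median of -0.83 and no member beyond 2-fold. The pairs disagreed in size: the median per pair was -0.03, -1.16, -1.29 and -0.80. Together the 6 took 4.10, 2.08, 1.17 and 0.540% of counts in polysomes, against 5.27, 5.55, 3.59 and 1.18% in lysates. For vit-2 the values were 11948, 6113, 3342 and 1668 CPM in polysomes, against 11334, 12812, 7775 and 2786 CPM in lysates, with replicate 1 slightly higher in polysomes and the other 3 lower. Its log2 ratio was -0.74 ± 0.18 (adjusted p = 0.00485), and the call was lost under DESeq2 (adjusted p = 0.30) and with all 32 libraries in the fit (0.072). The copies vit-3, vit-4 and vit-5 are near-identical, so reads may be split between them.

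Genes that build meiotic chromosomes were low. Of 39 genes of the chromosome axis, synapsis and recombination, 33 were called lower, 20 polysome-poor, and 2 higher, with a median of -1.05. The meiotic cohesin gene rec-8 had 26.9, 19.2, 18.6 and 18.5 CPM in polysomes, against 97.4, 99.6, 73.8 and 49.5 CPM in lysates, a log2 ratio of -1.91 ± 0.15 (adjusted p = 2.6e-06). All polysome values of rec-8 lay below all lysate values. The zinc-finger genes that pair chromosomes, zim-1, zim-2, zim-3 and him-8, were all 4 polysome-poor, between -1.81 and -1.09. The axis genes htp-3 and him-3 had log2 ratios of -1.12 ± 0.13 and -0.34 ± 0.12, that of him-3 lost without replicate 1, 2 or 3 in turn (adjusted p of 0.13, 0.11 and 0.056), and the synaptonemal complex gene syp-1 had -0.47 ± 0.10. The 2 called higher were skr-1 and skr-2, Skp1-related subunits of ubiquitin ligases with wider roles.

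Cell cycle and DNA replication genes were low too: 33 of 38 were called lower, 21 polysome-poor, and none higher, with a median of -1.1. The phosphatase gene cdc-25.3 had 10.5, 9.74, 1.58 and 0.545 CPM in polysomes, against 59.2, 51.2, 14.4 and 5.74 CPM in lysates, a log2 ratio of -2.75 ± 0.17. The origin recognition gene orc-1 had 34.2, 28.8, 11.9 and 14.7 CPM in polysomes, against 194, 143, 75.7 and 48.7 CPM in lysates, a log2 ratio of -2.30 ± 0.15. Each lysate again exceeded its own polysome library. The 6 subunits of the MCM helicase, which opens replication origins, were all called lower, between -1.55 and -0.83. The polo-like kinase gene plk-3 was among the 10 lowest protein-coding genes, with 38.7, 29, 24.2 and 18.7 CPM in polysomes, against 354, 326, 181 and 98 CPM in lysates and a log2 ratio of -3.0 ± 0.16.

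Germ granules are RNA-rich bodies at the nuclei of germ cells, and LOTR-1 is one of their proteins. Of 27 germ granule genes, lotr-1 among them, 22 were called lower, 11 polysome-poor, and 1 higher, with a median of -0.64. The P granule gene pgl-1 had 236.2, 230.3, 216 and 146 CPM in polysomes, against 433, 472, 417 and 333 CPM in lysates, a log2 ratio of -1.01 ± 0.09 (adjusted p = 7.44e-06). The helicase gene glh-1, with 462, 416, 464 and 391 CPM in polysomes, against 441, 506, 647 and 626 CPM in lysates, had a ratio of -0.34 ± 0.12 that lost its call without replicate 4 (adjusted p = 0.53) or 3 (0.16) and with all 32 libraries in the fit (0.15). The decapping enzyme gene dcap-2 was the lowest member by the naming rule, at -2.41 ± 0.16. The 1 called higher, the RNA-binding protein gene car-1, had 2369.9, 2318, 1221 and 759.9 CPM in polysomes, against 1845, 2078, 1077 and 651 CPM in lysates. Its log2 ratio of 0.23 ± 0.09 (adjusted p = 0.0428) was no longer called when any 1 replicate was left out (adjusted p of 0.076 to 0.15) and was -0.12 under library totals.

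Argonautes, the proteins that carry small RNAs, had 13 of 19 tested called lower, 10 polysome-poor, and none higher, with a median of -1.04. The microRNA-class Argonaute gene alg-5 had 21.4, 21.4, 10.8 and 8.88 CPM in polysomes, against 125, 136, 67.9 and 31.3 CPM in lysates, a log2 ratio of -2.43 ± 0.15. The nuclear germline Argonaute gene hrde-1 had 287, 206, 131 and 68.9 CPM in polysomes, against 837, 893, 441 and 189 CPM in lysates, a log2 ratio of -1.72 ± 0.12. In both the lysate was the higher fraction in each pair. The PIWI gene prg-1 stood at -1.30 ± 0.11 and wago-4, which carries inherited silencing, at -1.46 ± 0.11. The Argonaute gene csr-1, which binds small RNAs against expressed germline genes, had 316, 295, 229 and 153 CPM in polysomes, against 280.5, 309, 301 and 192 CPM in lysates and was not called (log2 ratio -0.15 ± 0.11, adjusted p = 0.252).

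Factors of RNA interference, RNA-dependent RNA polymerases and mutator proteins, which make and amplify small RNAs, had 31 of 38 called lower, 16 polysome-poor, and 2 higher, with a median of -0.89. The nucleotidyltransferase gene mut-2 had 14.5, 13.5, 6.56 and 6.79 CPM in polysomes, against 78, 69.1, 28.9 and 17.9 CPM in lysates, a log2 ratio of -2.09 ± 0.17. The 2 called higher were sid-2 and sid-5, of which sid-2, an intestinal receptor for ingested double-stranded RNA, had 15.3, 19.9, 24.2 and 29.3 CPM in polysomes, against 7.23, 8.54, 14.3 and 18.9 CPM in lysates and a log2 ratio of 0.92 ± 0.13. The helicase gene znfx-1 had a log2 ratio of -1.32 ± 0.14.

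Genes for making piRNAs, the small RNAs bound by PRG-1, were divided: 12 of 22 were called lower and 4 higher, with a median of -0.39. The SNAPc-family gene snpc-1.1 and the trimming nuclease gene parn-1 were the lowest, at -1.92 ± 0.12 and -1.15 ± 0.12. The 4 called higher were erh-2, tost-1, gtsf-1 and pid-3, of which erh-2 and tost-1, small subunits of 1 processing complex, were polysome-rich. The erh-2 values were 103.8, 103, 45.3 and 36.1 CPM in polysomes, against 45.9, 43.6, 20.6 and 19.9 CPM in lysates, with a log2 ratio of 1.1 ± 0.10.

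Several lists of somatic genes leaned the other way. The 3 markers of each tissue were mixed, with 2 called higher and 0 lower in neurons and 2 and 1 in the hypodermis. Intestinal markers had 1 higher and 1 lower, and those of muscle 0 higher and 2 lower. Of 53 intestinal genes tested of 61 in the table, 41 were called higher, 19 polysome-rich, and 1 lower, with a median of 0.83. By family, the saposin-like proteins, several of which attack bacteria in the gut, had 15 of 17 called higher and 11 polysome-rich, and the lysozymes had 8 of 9 called higher. The saposin-like gene spp-5 had 952, 1032, 834 and 1099 CPM in polysomes, against 325, 359, 307 and 413 CPM in lysates, a log2 ratio of 1.48 ± 0.09 (adjusted p = 1.28e-06). All 4 polysome values lay above all 4 lysate values, and replicates 3 and 4 did not stand apart for spp-5. The sole gene of this list called lower was the intermediate filament gene ifd-2, at -0.43 ± 0.14. That call was lost without replicate 4 (adjusted p = 0.31) or 3 (0.12) and with all 32 libraries in the fit (0.14). The vitellogenins, also products of the intestine, form a separate list, with 6 of 6 called lower.

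Peptides released by neurons and other secretory cells were high. Of 120 neuropeptide and insulin-like genes tested of 145 in the table, 82 were called higher, 30 polysome-rich, and 2 lower, with a median of 0.65. By class, 18 of 30 FMRFamide-like peptides, 48 of 69 neuropeptide-like proteins and 16 of 21 insulin-like peptides were called higher. The peptide gene nlp-24 had 153, 145, 297 and 305 CPM in polysomes, against 56.6, 44.2, 93.1 and 119 CPM in lysates, a log2 ratio of 1.54 ± 0.10. Neuronal genes proper had 13 of 27 called higher and 1 lower, with a median of 0.41; the synaptobrevin gene snb-1 stood at 0.70 ± 0.09 and the syntaxin gene unc-64 at 0.91 ± 0.11.

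The muscle sarcomere split by protein. Of 36 genes, 24 were called higher, 7 polysome-rich, and 6 lower, with a median of 0.41. Of 14 genes for myosin light chains, troponins and calponin-like proteins, 13 were called higher and none lower, while of the 4 myosin heavy chain genes 3 were called lower, a division made after the values were seen. The light chain gene mlc-1 had 892, 1104, 1957 and 1381 CPM in polysomes, against 341, 375, 738 and 635 CPM in lysates, with a log2 ratio of 1.37 ± 0.10. The pharyngeal heavy chain gene myo-1 had 38.3, 25.9, 27.7 and 11.5 CPM in polysomes, against 54.6, 64.3, 72.1 and 24.7 CPM in lysates, with a log2 ratio of -1.08 ± 0.15. The main body wall heavy chain gene unc-54, with 1085, 894, 1305 and 793 CPM in polysomes, against 926, 1049.7, 1767 and 1447 CPM in lysates, did not pass (log2 ratio -0.33 ± 0.15, adjusted p = 0.0824), and the paramyosin gene unc-15 stood at -0.53 ± 0.11, a call lost without replicate 4 (adjusted p = 0.066).

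Cuticle collagens, secreted by the hypodermis, had 61 of 143 tested called higher and 4 lower, with a median of 0.30 that became -0.06 under library totals; 175 collagen genes were in the table. The adult collagen gene col-19 had 2098, 2349, 1979.8 and 1124 CPM in polysomes, against 1359, 1333, 1283 and 834 CPM in lysates, a log2 ratio of 0.63 ± 0.10. The lowest was bli-1, a collagen of the adult cuticle struts, at 0.319, 0.409, 8.6 and 32 CPM in polysomes, against 0.71, 0.674, 38 and 91.6 CPM in lysates, so its level rests on replicates 3 and 4, and within pairs 1 and 2 alone it was not called (adjusted p = 0.057). C-type lectins, many of them secreted, had 62 of 103 tested called higher and 8 lower, with a median of 0.58; of the 5 polysome-poor ones, clec-87 and clec-88 were the lowest by the naming rule.

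Among large gene families the nematode-specific peptide families were high, with 32 of 35 called higher, 28 polysome-rich, and a median of 1.14. The BATH and MATH genes, adaptors of ubiquitin ligases, were low, with 28 of 47 called lower, 17 polysome-poor, and 3 higher, and a median of -0.58; bath-30 had 9.04, 10.7, 6.88 and 6.85 CPM in polysomes, against 51.9, 59.2, 29.7 and 22.8 CPM in lysates and a log2 ratio of -2.21 ± 0.15. F-box genes, adaptors of another ligase class, had 18 of 188 called higher and 36 lower, 24 of these polysome-poor, with a median of 0.14 (-0.20 under library totals), both shares under those over all genes. The detoxification families of cytochromes P450, glutathione transferases and glucuronosyltransferases had 35 of 140 called higher (25%) and 3 lower (2.14%). Both shares were under the 31.6% and 28.6% over all genes, and the median was 0.18 (-0.17 under library totals). Nuclear hormone receptors had 29 of 175 called higher and 24 lower, a smaller share in each direction than over all genes, with a median of 0.08 (-0.27 under library totals). Genes first transcribed in early embryos had 11 of 41 called higher (26.8%) and 3 lower (7.32%), both shares again under those over all genes. Their median was 0.33 (-0.01 under library totals). Of the 11 PALS genes tested, 2 (18.2%) were called higher.

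**Figure D3:**
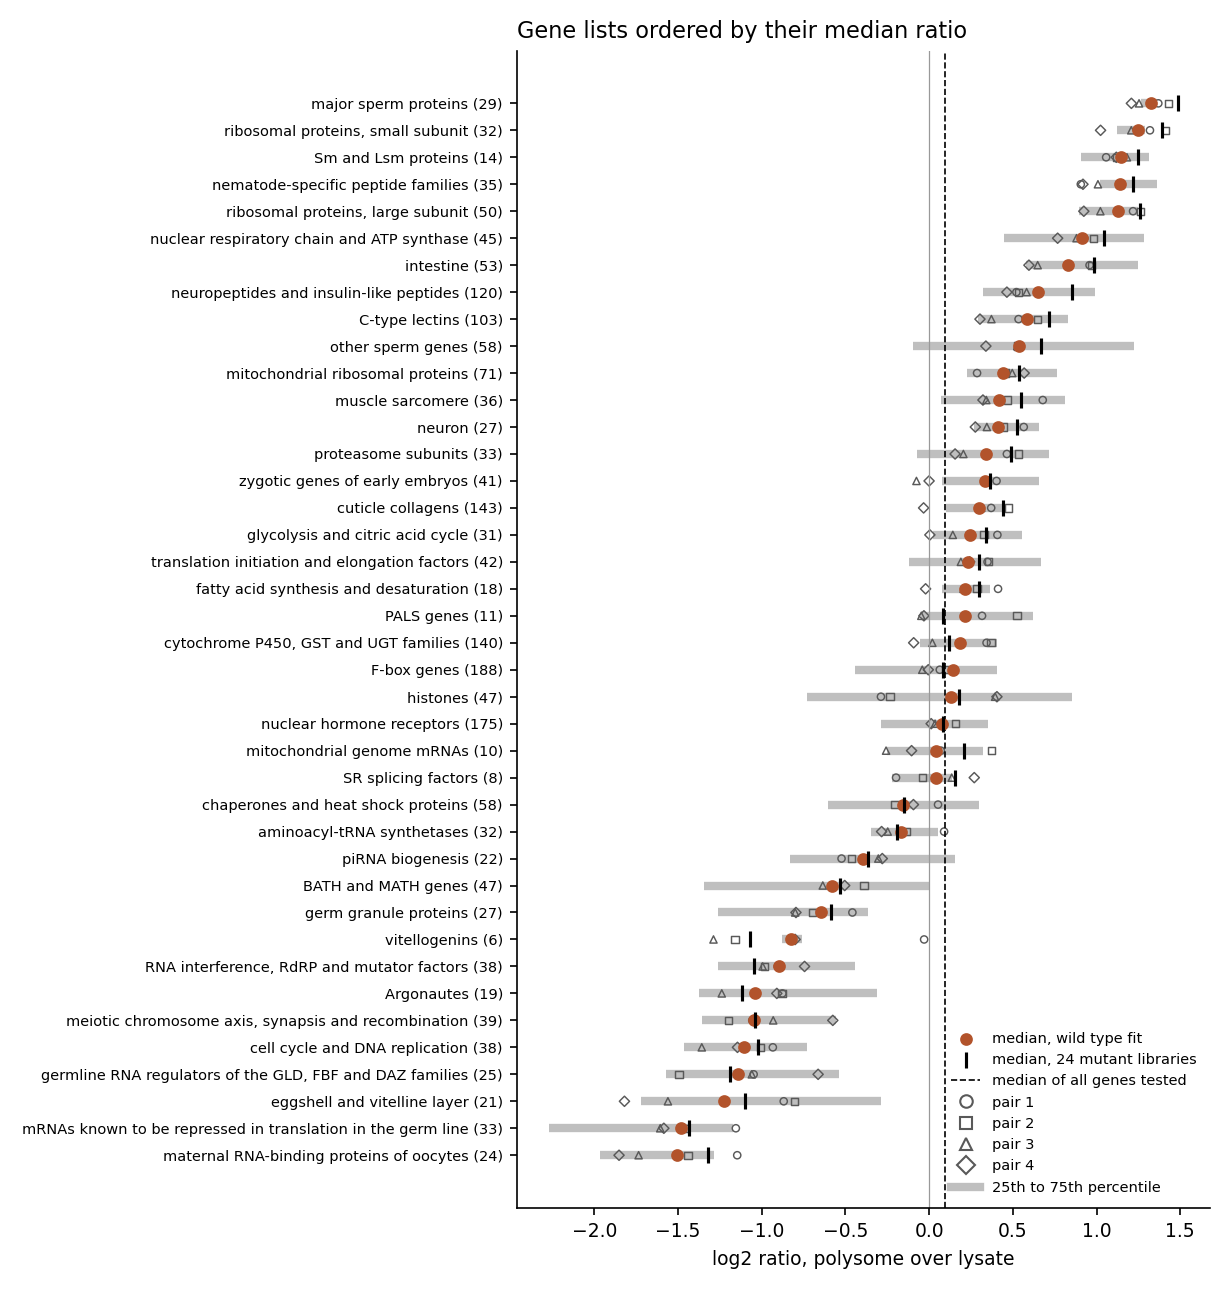
Median log2 ratio of polysome over lysate for 40 gene lists (number of genes tested in brackets), ordered from lowest to highest; filled points are wild type medians, open symbols the 4 pairs, black ticks the same lists in the 24 mutant libraries, grey bars the 25th to 75th percentile of the members, and the dashed line the median of all genes (0.10). Major sperm proteins lie highest at 1.33 and maternal RNA-binding proteins lowest at -1.51; in the vitellogenins pair 1 lies apart, near 0.

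Ranked over all protein-coding genes with at least 10 CPM on average, the lowest mRNAs were F23A7.8, K11H3.8, T21C9.13, fbxa-215, nos-2, F22F4.4, Y67H2A.10, K04C1.5, C37C3.9 and plk-3. For F23A7.8 the values were 7.48, 7.55, 3.96 and 4.09 CPM in polysomes, against 169, 131, 70.4 and 74.5 CPM in lysates, a log2 ratio of -4.24 ± 0.12 (adjusted p = 5.77e-08). The F-box gene fbxa-215 had 14.4, 16, 4.67 and 3.03 CPM in polysomes, against 151, 139, 58.7 and 33.3 CPM in lysates. Both stayed low in polysomes in every replicate. The highest ratio among these 10 was that of plk-3. The highest were snr-7, msd-3, T23F2.5, msd-4, pud-2.2, fipr-1, R12E2.7, lbp-3, ssp-35 and nspd-2, of which lbp-3 codes for a fatty acid-binding protein. The place of msd-3 rests on the unstable call described above. T23F2.5 had 201, 204, 139 and 108 CPM in polysomes, against 61.2, 50, 31.6 and 28.8 CPM in lysates, and R12E2.7 had 2.84, 3.68, 147 and 252 CPM in polysomes, against 1.03, 0.974, 43.4 and 91.3 CPM in lysates. R12E2.7 was nearly silent in replicates 1 and 2 and yet had the same direction in all 4 pairs. Its log2 ratio was 1.64 ± 0.12.

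Of the few transcripts annotated as noncoding that were tested, most were low in polysomes. In the RefSeq class ncRNA, 61 of 7764 genes were tested, and 41 were called lower and 8 higher, with a median of -1.45. For long noncoding RNAs, 29 of 194 were tested, and 23 were called lower and 1 higher, with a median of -1.95. With the pseudocount of 0.5 CPM, the medians per pair were smaller, at -0.90 to -0.67 for ncRNA and -1.03 to -0.89 for long noncoding RNAs. A gene could pass the filter on low counts through the lysates alone, so these shares do not describe the untested rest. Protein-coding genes, by contrast, had a median of 0.13, with 4662 of 14330 called higher and 3861 lower. Another 2820 genes had no match in the RefSeq table and so no annotated type, and 460 of them were tested. The mitochondrial mRNAs ctc-1, nduo-3, nduo-5 and ctb-1 are among the tested ones. Of these 460, 329 were called lower and 34 higher, with a median of -1.25. The same limit of the filter applies, so these shares do not describe the untested ones. All 2820 together took 6.84, 7.03, 7.12 and 7.68% of the polysome counts, against 4.46, 4.38, 5.18 and 6.33% of the lysate counts. Most tested genes of this class were thus lower in polysomes, while the summed share of the class was higher there in each of the 4 pairs.

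The 5 noncoding genes named by rank were Y40A1A.6, T05E11.9, tts-2, W05H9.3 and lep-5, and none met the rule on the high side. Y40A1A.6 had 3.3, 2.56, 1.12 and 1.03 CPM in polysomes, against 48.6, 30.2, 20.1 and 21.8 CPM in lysates, a log2 ratio of -3.96 ± 0.16. The long noncoding RNA gene lep-5, known for its role in the timing of larval development, had 12.3, 14.2, 28.3 and 34.9 CPM in polysomes, against 53.2, 55.9, 152 and 233 CPM in lysates, with a log2 ratio of -2.32 ± 0.14. Both were low in polysomes in each pair, although neither was absent from them.

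The ratio declined with the length of the gene. Protein-coding genes spanning under 500 bases from start to end in the RefSeq table (assembly WBcel235), introns included, had 325 of 440 called higher and 23 lower, with a median of 1.11. From 500 to 1000 bases 1001 were called higher and 169 lower, with a median of 0.70, and from 1000 to 2000 bases 1503 of 3969 were, with a median of 0.25. From 2000 to 4000 bases 1090 of 4397 were called higher and 1324 lower, with a median of 0.03, and 132 of these were polysome-rich, against 587 polysome-poor. Genes of 8000 bases and more had 243 of 1416 called higher and 548 lower, with a median of -0.14. Across 14330 genes the Spearman correlation of span and log2 ratio was -0.34, and -0.38 over the 7394 genes with at least 10 CPM, as a description over genes that share libraries.

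Length and the gene lists can be set side by side. The small-subunit ribosomal proteins had a median span of 732 bases and the maternal RNA-binding proteins one of 2490.5 bases, in the class of 2000 to 4000 bases whose median was 0.03, against -1.51 for the list. The sarcomere genes had a median span of 4142 bases, in the class of 4000 to 8000 bases whose median was -0.10, against 0.41 for the list. Nearer to its class lay the list of nematode-specific peptide families, with a median span of 416 bases and a median of 1.14. The class under 500 bases had 1.11. In the divisions made after the values were seen, the higher part also had the shorter median span. It was 1018.5 bases for the 20S core and 1874 for the 19S cap. Small heat shock proteins had 1078, against 2695 for the HSP60 to HSP110 classes. Myosin light chains, troponins and calponin-like proteins had 1576.5, against 7555 for heavy chains. The part of length in any list was not tested, and gene span includes introns and differs from the length of the mRNA.

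By chromosome, X stood highest: 837 of its 2038 protein-coding genes were called higher and 247 lower, with a median of 0.33. Chromosome I stood lowest, with 649 of 2372 called higher and 851 lower and a median of -0.05. Chromosome V had a median of 0.21, and III one of -0.02. The X chromosome of C. elegans is known to be largely silent in the germ line and to hold few of its genes. Whether that bears on the ratios of X was not tested.

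**Figure D4:**
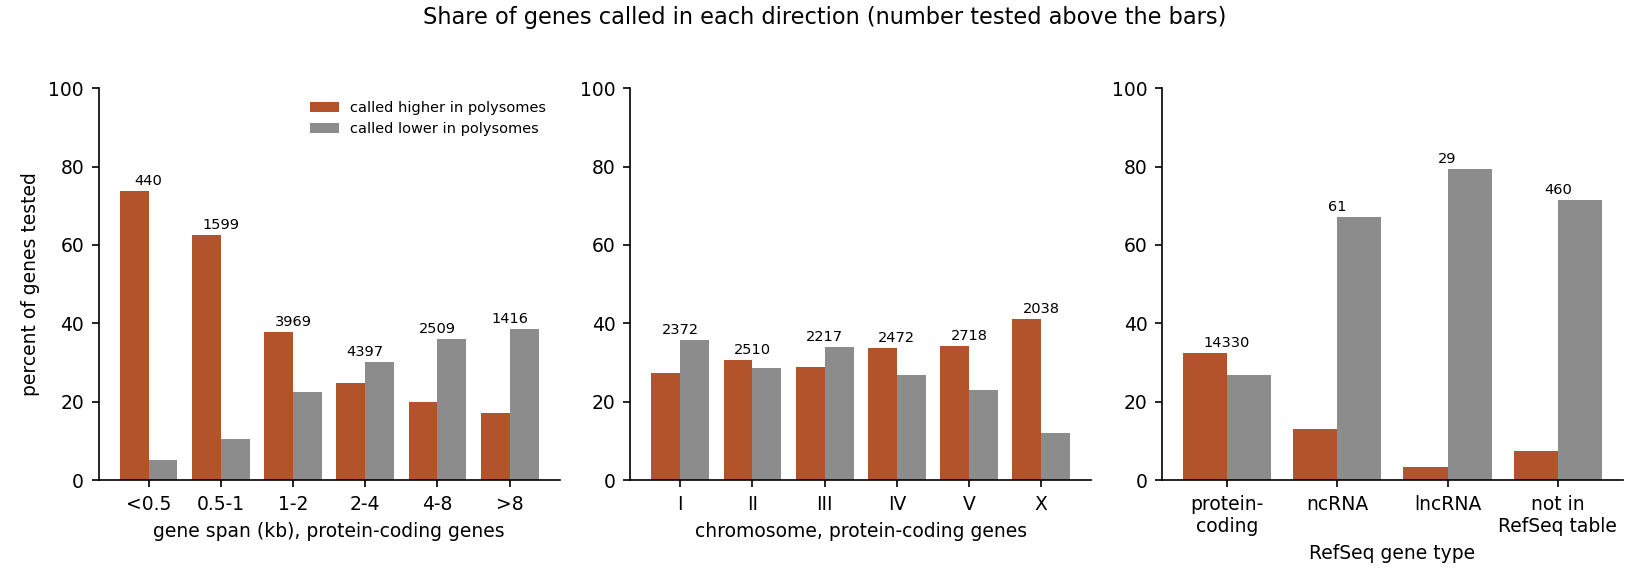
Percent of genes tested that were called higher (orange) or lower (grey) in polysomes, by gene span (protein-coding genes, in kilobases), by chromosome (protein-coding genes) and by RefSeq gene type, with the number tested above each pair of bars. The share called higher falls with each longer class, X has the largest share called higher among the chromosomes, and noncoding and unmatched genes are mostly called lower.

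The 24 libraries of the lotr-1 mutants, which share no library with the wild type, gave nearly the same division. Of the 4705 wild type genes called higher that were tested in the mutants alone, 4593 were called higher there too (97.6%), and of 4261 called lower, 4147 were called lower (97.3%). Of the 1954 polysome-poor genes 1931 (98.8%) kept their call, and of the 1260 polysome-rich genes 1234 (97.9%) did. The background is high, since the mutant libraries called 6692 of 16115 genes higher (41.5%) and 5576 lower (34.6%). The median of each of the 40 lists had the same sign in the mutants as in the wild type, with differences of mutants minus wild type between -0.25 (vitellogenins) and 0.20 (neuropeptides and insulin-like peptides).

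Tested directly over all 32 libraries, the ratio differed between the mean of the 3 mutants and the wild type for 4 of 16253 genes (0.0246%): enu-3.6, timm-17B.2, lotr-1 and saeg-2. DESeq2 called 66 genes, edgeR without the replicate block none (132 at an unadjusted p under 0.05), and in the blocked fit 976 genes had an unadjusted p under 0.05. For enu-3.6 the log2 ratio was 0.31 in the mutants and -0.56 in the wild type, a difference of 0.87 (adjusted p = 0.000691). For lotr-1 the ratio in this fit was 0.57 in the full deletion, -1.35 in the LOTUS deletion and -1.69 in the Tudor deletion, against -1.60 in the wild type, a mean difference of 0.77 (adjusted p = 0.0242). Of the 3 deletions, the full deletion alone had a ratio above 0, and what its remaining reads cover was not analysed here. The ratio of timm-17B.2 was 0.98 in the mutants and -0.28 in the wild type, and that of saeg-2 was -1.40 in the mutants and 0.12 in the wild type, both with adjusted p = 0.0242. With replicate 1, 2, 3 or 4 left out in turn, the number of genes called was 0 or 1.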

How the data were processed

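Polyadenylated RNA was sequenced with a stranded kit, per the labels. The authors deposited expected counts, that is, reads estimated for each gene. The submitters' processing notes list Salmon and DESeq2 without a version or role. Genome build, annotation and strand setting were not given in the sources used here. Counts were rounded, since 15.3% of positive values were not whole, and all 46926 rows named a gene, 2766 by identifier only. A second deposited table of replicate-adjusted whole numbers, treated as a score because the authors' adjustment is not described, served only as an alternative input. Gene types, spans and chromosomes came from a RefSeq table of WBcel235, which matched 44106 rows, and symbols also from a name table that matched 44115. No coordinates or sequences are printed.

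Tests used R 4.3.3 with edgeR 4.0.16 (TMM, filterByExpr, quasi-likelihood F test), with the replicate number as a block and the fraction as the term, over the 8 wild type libraries. The pairing comes from the design text, in which each lysate was divided. Over 7480 genes, deviations from the group means correlated with r of 0.941 to 0.952 between fractions of 1 lysate, of 0.826 to 0.909 between different lysates of replicates 1 and 2 or of 3 and 4, and of -0.934 to -0.88 otherwise. Each mean was taken over the 4 libraries of a fraction, so the gap between replicates 1 and 2 and replicates 3 and 4 makes values across it negative. These correlations mostly restate that gap and are no separate test of the pairing. Alternatives used limma 3.58.1 and DESeq2 1.42.0. The ratio of 1 pair used a pseudocount of 0.5 CPM. No label says that replicates were grown as separate cultures, so the p-values cover the variation among these libraries, which may be technical in part. In simulated data of 14895 genes for this comparison, 47 of 50 genes were recovered at a log2 ratio of 1 and 47 of 50 at -1, 21 of 50 at 0.5 and 18 of 50 at -0.5, with 8 false calls. Only the 50 genes at each ratio were changed there, while 60.2% of genes were called in the real data. The adjusted p limit was therefore stricter in the simulation. Its counts were drawn with a spread set by expression level, without each gene's own spread. The changed genes were picked among those with a mean above 1 CPM. Its recovery and its 8 false calls thus do not give the sensitivity or the error rate of the real fit.

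The members and the 40 gene lists were chosen with earlier results of these data known, and lists overlap. The naming rule took lotr-1; the 10 highest and 10 lowest called protein-coding genes with 1 sign in all 4 pairs and a mean of at least 10 CPM; up to 5 each of other gene types; up to 2 highest and 2 lowest called members of each list at that level; and the 5 polysome-rich and 5 polysome-poor genes with the largest shares of lysate counts. It gave 147 genes. Another 45 were taken for their known roles after the values were seen. Salmon divides reads between near-identical or overlapping transcripts, so values of single genes for F-box proteins, collagens, histones and MSPs are uncertain.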

Additional observations from a re-analysis of the deposited data

Results flagged for a closer look

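A library stood far from the other 3 of its group, by Dixon's ratio, in 12 of the gene and fraction groups named in the report. In polysomes these were the highest values of F22F4.4 (2.53 CPM), rec-8 (26.9 CPM), rpl-14 (3944 CPM) and rps-7 (7021 CPM) and the lowest value of fog-1 (2.70 CPM). In lysates they were the highest values of ife-1 (368 CPM), mrps-31 (24.01 CPM), pud-2.2 (56.4 CPM) and rpl-17 (3054 CPM) and the lowest values of col-19 (834 CPM), eef-1A.1 (11334 CPM) and tpi-1 (147.6 CPM). Among list medians per pair, pair 4 lay lowest and apart for the other sperm genes (0.34) and pair 3 lay lowest and apart for the Argonautes (-1.24). In all, 14 of 302 groups stood out, where chance at 1 in 20 gives 15.1.

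The ratio of polysome over lysate differed between the mutants and the wild type for 4 genes by the test of the difference itself. As mutants minus wild type, it differed by 0.87 for enu-3.6, 1.26 for timm-17B.2, 0.77 for lotr-1 and -1.52 for saeg-2 on the log2 scale.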

How the results depend on the processing

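The count of genes called, 4706 higher and 4262 lower, became 881 and 841 with no replicate block, and the 2-fold counts of 1261 and 1955 became 517 and 755. Of 192 genes, 111 lost their call without the block, and none changed sign. Under library totals 2325 genes were called higher, 289 at least 2-fold higher and 3115 at least 2-fold lower. DESeq2 gave 3619 higher and 4666 lower, no filter on low counts 3443 and 4962 of 21094 genes, all 32 libraries in the fit 4711 and 4317, and limma on the replicate-adjusted values 4648 and 4703. Leaving out 1 replicate gave 3963 to 4931 genes higher, 3540 to 4066 lower, 1107 to 1960 at least 2-fold higher and 1742 to 1996 at least 2-fold lower. The count for mutants minus wild type, 4, was 0 with no replicate block, 66 with DESeq2 and 0 to 1 with 1 replicate left out. The sign changed under library totals for act-4 (-0.0378), ctb-1 (-0.00845), rsp-6 (-0.0535) and car-1 (-0.118), and in pairs 3 and 4 only, a choice made after seeing the data as was that of pairs 1 and 2, for fbxc-51 (-0.0156); the cause was not tested. Among the 192 genes, the alternatives other than the block ended 3 to 10 calls each with no change of sign, beside the 5 with one. Of 40 list medians, 13 changed sign under library totals and 0 crossed the median of all genes. Under the other alternatives 0 to 5 changed sign, with 5 each under DESeq2, with no filter and in pairs 3 and 4 only. In those alternatives 1 to 4 list medians crossed the median of all genes, most often that of the F-box genes. Protein length classes were not run, and gene span stood in for them. In the simulation, where few genes were changed, recovery fell from 47 to 21 of 50 between log2 ratios of 1 and 0.5.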
